A study of Mus musculus with 18 samples.

Results

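Cyclic AMP (cAMP) is a small second messenger that adenylyl cyclases make from ATP when Gs-coupled receptors at the cell surface are engaged, and that phosphodiesterases break down. It acts mainly by releasing the catalytic subunits of protein kinase A (PKA) from their regulatory subunits, and in T cells it is best known for dampening signals from the antigen receptor. Regulatory T cells (Treg), the CD4 T cells that carry the transcription factor Foxp3 and restrain other immune cells, are known for holding much cAMP and for passing it on to other cells.

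The 9 genes described here take part in making, breaking down and sensing cAMP. They were chosen by name: the adenylyl cyclases Adcy6 and Adcy7, the phosphodiesterases Pde3b, Pde4b, Pde4d and Pde7a, the vasoactive intestinal peptide receptor Vipr1, and the PKA subunits Prkar1a (regulatory) and Prkacb (catalytic). All 9 were found among the 23420 genes of the count table, and all 9 were among the 10630 genes with enough counts to test. The names were proposed with earlier results on these libraries in view, in which Adcy6 and Pde4d stood out between effector and resting cells. Member values between the states are therefore given as a description without a p-value. Those between genotypes, and those for differences between state changes, are not independent evidence.

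The RNA came from sorted mouse Treg in 18 libraries. The labels give 3 genotypes, FCre x C1+/+, FCre x C1fl/+ and FCre x C1fl/fl, written here as +/+, fl/+ and fl/fl. FCre stands in all 3 names, so all groups share it, the +/+ controls included. Each genotype has resting and effector cells under batch numbers 1 to 3, used here as replicate numbers, which makes 6 groups of 3. The labels do not expand FCre, and the sources used here do not give age, sex, tissue, sorting gate or any pooling of animals. Nothing ties each replicate to its own animal, so a p-value measures the spread between these samples, which may be technical.

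Library totals ran from 1658073 to 5756903 expected counts, so 1 count was worth a large part of the level of the scarcest genes. Foxp3 was present in all groups, with group means of 239 to 325 CPM (counts scaled to the library total), and the other 5 genes of the T cell and Treg list (Cd3e, Cd4, Il2ra, Ikzf2, Ctla4) had counts in every group. Markers of other cells were low: 6 B cell genes summed to 9.39 to 77 CPM per library, with the highest in +/+ resting replicate 3, 4 myeloid genes to 0.331 to 8.13 CPM, 5 dendritic cell genes to 2.15 to 8.54 CPM and 4 CD8 and NK cell genes to 16 to 41.8 CPM. The B cell factors Pax5 and Ebf1 had no count in +/+ effector libraries, but their means were at most 0.790 CPM in every group. Cd79b, of the same B cell list, was at 15.2 to 25.4 CPM in the +/+ effector libraries. Effector libraries of fl/fl differed among themselves. A sum of 5 effector-state genes (Icos, Klrg1, Prdm1, Tigit, Itgae) was 654 CPM in fl/fl effector replicate 1, 176 CPM in replicate 2 and 253 CPM in replicate 3, against 675 to 1260 CPM in +/+ effector, 567 to 739 CPM in fl/+ effector and 58.4 to 165 CPM in resting libraries. Replicates 2 and 3 of fl/fl were thus below all other effector libraries, and replicate 1 of fl/fl lay inside the fl/+ range. The +/+ effector libraries differed too, with 1260 CPM in replicate 1, 1190 CPM in replicate 2 and 675 CPM in replicate 3.

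Between the states the 9 genes moved in different directions. In +/+ cells, Adcy6, Pde4d and Vipr1 were lower in effector than in resting libraries, and Adcy7 and Prkar1a were higher. These are the 5 of 9 members past the call threshold (adjusted p under 0.05), where 16.0% of all genes tested were called in +/+. Since the names were chosen with this contrast in view, its counts and shares describe the members and nothing is read from them. The same holds for every call of a member between states below, and for its loss or gain in other fits. In the other genotypes the count was 3 of 9 in fl/+ (Adcy6 and Vipr1 lower, Adcy7 higher), beside 16.3% of all genes, and 1 of 9 in fl/fl (Pde4d lower), beside 6.34% of all genes. The libraries of both states did not overlap for 7 of 9 members in +/+ (32.3% of all genes), 6 of 9 in fl/+ (34.1%) and 3 of 9 in fl/fl (21.7%). Pairing the resting and effector library of the same genotype and number raised these counts to 6, 5 and 2, by adding Pde3b in +/+, Pde4d and Prkar1a in fl/+ and Adcy7 in fl/fl. The same pairing raised the count over all genes from 1700 to 2176 for effector against resting in +/+, from 1732 to 2265 for effector against resting in fl/+ and from 674 to 1071 for effector against resting in fl/fl. Leaving out 1 library at a time gave 1 to 6 members in +/+, 2 to 4 in fl/+ and 0 to 2 in fl/fl. Adcy6 was the only member left in +/+ without effector replicate 2.

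**Figure D1:**
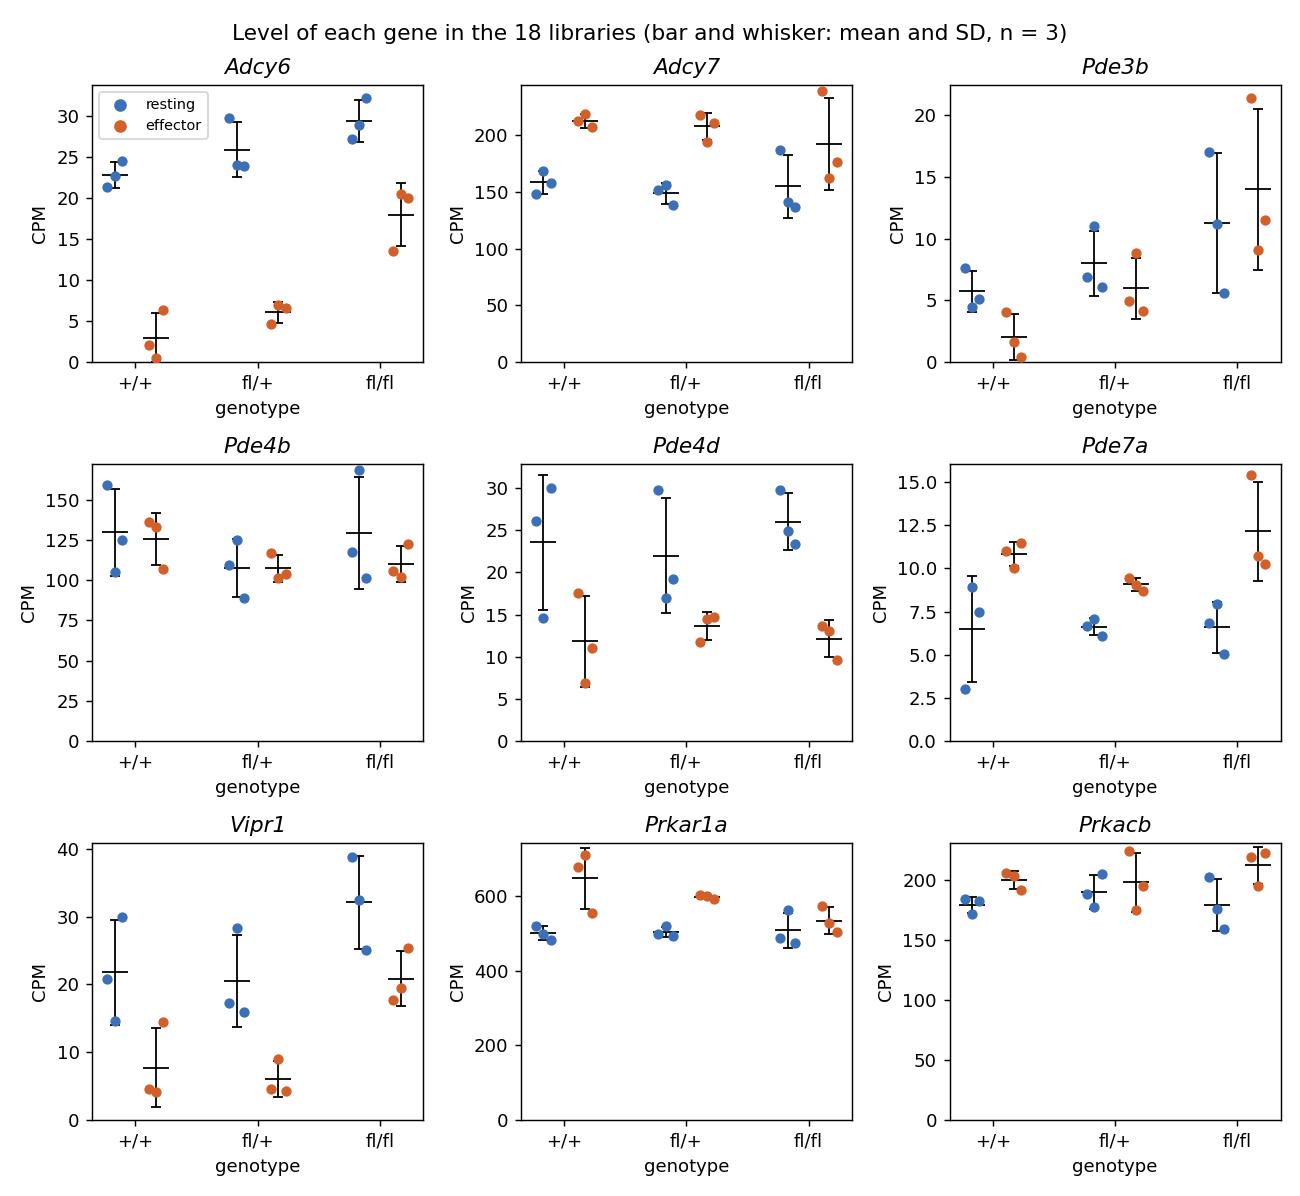
Level of each of the 9 genes in CPM (vertical axes, from 0) by genotype, with resting libraries in blue, effector libraries in orange, and the mean and SD of 3 libraries as bar and whisker. Adcy6 effector libraries lie between 0.529 and 6.99 CPM in +/+ and fl/+ and between 13.5 and 20.5 CPM in fl/fl, while Pde4b and Prkacb keep similar levels in all 6 groups.

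Adcy6, a cyclase that calcium and PKA inhibit, had the largest difference between states of the 9 in +/+ cells. Its level was 21.3, 22.7 and 24.5 CPM in the +/+ resting libraries and 2.11, 0.529 and 6.28 CPM in the +/+ effector libraries. The groups did not overlap, and the log2 fold change was -2.89 (SE 0.36), or 7.43-fold lower in effector cells. The lowest value, in +/+ effector replicate 2, rests on 1 count. In fl/+ the resting libraries read 29.7, 24.0 and 23.95 CPM and the effector libraries 4.63, 6.99 and 6.53 CPM (log2 fold change -2.13, SE 0.30). In fl/fl the resting libraries read 27.1, 28.9 and 32.2 CPM and the effector libraries 13.5, 20.5 and 19.95 CPM (log2 fold change -0.74, SE 0.28). Here too the states did not overlap, but the gap was narrower, and the gene passed in fl/fl only when +/+ effector replicate 3 was left out or no filter on low counts was used.

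In order of their means, the Adcy6 groups ran from fl/fl resting (29.4 ± 2.56 CPM, SD, n = 3) through fl/+ resting (25.9 ± 3.32), +/+ resting (22.8 ± 1.59), fl/fl effector (17.97 ± 3.89) and fl/+ effector (6.05 ± 1.25) to +/+ effector (2.98 ± 2.97). Neighbours in the resting part of this order overlapped, as did fl/+ and +/+ effector cells. The fl/fl and +/+ resting libraries, which are not neighbours, did not overlap. That difference was not called (log2 fold change 0.37, SE 0.27, edgeR adjusted p = 0.845). The fl/fl effector libraries overlapped neither the resting groups above them nor the effector groups below them.

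Adcy6 was higher in fl/fl than in +/+ effector cells by 2.52 on the log2 scale (SE 0.37, 5.73-fold, edgeR adjusted p = 0.00178), and every fl/fl library exceeded every +/+ library. Of the 9 members, Adcy6 and Pde3b passed in that comparison, in which 2.81% of all genes were called. For 3 of 9 members the fl/fl and +/+ effector libraries did not overlap, beside 20.5% of all genes, and for 5 of 9 the fl/fl and fl/+ effector libraries did not, beside 16.3%. Against fl/+ effector cells Adcy6 was higher by 1.55 (SE 0.31, edgeR adjusted p = 0.0353), and there Adcy6 and Vipr1 were the 2 members called, beside 0.677% of all genes. The call against +/+ held with any 1 of the 18 libraries left out (log2 fold change 2.19 to 3.41, edgeR adjusted p 6.64e-05 to 0.0402). The call against fl/+ was lost without fl/+ effector replicate 1 (adjusted p = 0.166) or 3 (0.197) or fl/fl effector replicate 2 (0.181) or 3 (0.0954), in the same edgeR test. Between fl/+ and +/+ effector cells the difference was 0.96 (SE 0.40, edgeR adjusted p = 0.791).

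The change of Adcy6 between states was smaller in fl/fl than in +/+ by 2.15 on the log2 scale (SE 0.46). This difference of differences did not pass over all genes (edgeR adjusted p = 0.241), where 0% of genes were called. Because it contains the state difference in view when Adcy6 was named, no p-value for it is independent evidence. With resting and effector libraries paired by genotype and number it was 2.20 and passed (edgeR adjusted p = 0.0203). It also passed without +/+ effector replicate 3 (3.04, edgeR adjusted p = 0.00646) and without fl/fl effector replicate 1 (2.36, edgeR adjusted p = 0.036). No member was called in the other interaction contrasts, fl/+ less +/+ (0.0188% of genes) and fl/fl less fl/+ (0.00941% of genes).

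Markers of the cell states moved with this result. A sum of 4 resting-state genes (Ccr7, Lef1, Tcf7, Satb1) was 1430 to 1920 CPM in fl/fl effector libraries, 898 to 1260 CPM in +/+ effector, 1110 to 1290 CPM in fl/+ effector and 1740 to 2070 CPM in resting libraries. In +/+ effector libraries it was 898 CPM in replicate 1, 906 CPM in replicate 2 and 1260 CPM in replicate 3. Of these 4 genes, 3 were called higher in fl/fl than in +/+ effector cells, and of the 5 effector-state genes 2 were called lower. Of the 6 T cell and Treg genes, 2 were called lower: Ctla4, an inhibitory receptor (-1.31, SE 0.22, edgeR adjusted p = 0.00425), and Ikzf2, the transcription factor Helios (-0.91, SE 0.17, edgeR adjusted p = 0.0078). Ikzf2 was also lower in fl/fl than in +/+ resting cells (-0.79, SE 0.17, edgeR adjusted p = 0.0336). The B cell sum was 16.9 to 26.2 CPM in +/+ effector and 11.7 to 16.8 CPM in fl/fl effector libraries. The CD8 and NK cell sum was 16.3 to 21.1 CPM in +/+ effector libraries, 41.8 CPM in fl/fl effector replicate 1, 19.1 CPM in replicate 2 and 20.6 CPM in replicate 3. The part of any of these in the Adcy6, Vipr1 and Pde3b values was not tested, and in bulk RNA fewer cells of a kind and less RNA per cell cannot be told apart.

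Adcy7, the cyclase known as the main form in blood cells, was the most abundant cyclase per length. It read 149, 169 and 158 CPM in +/+ resting libraries and 212, 219 and 207 CPM in +/+ effector libraries (log2 fold change 0.43, SE 0.13). In fl/+ it read 152, 156 and 138.5 CPM resting and 218, 194.5 and 211 CPM effector (0.48, SE 0.13). Effector libraries were above resting libraries without overlap in both genotypes, but the +/+ call was lost without any 1 of +/+ resting replicates 1 and 3 and +/+ effector replicates 1 to 3, and the fl/+ call without fl/+ resting replicate 3. In fl/fl, 187, 141 and 137 CPM resting and 239, 162 and 176.5 CPM effector overlapped (0.32, SE 0.13), and replicate 1 was the highest library in each state. Without resting replicate 1 Adcy7 was called in fl/fl. No genotype comparison called Adcy7, with fl/fl against +/+ at -0.13 in effector cells (SE 0.13, edgeR adjusted p = 0.683).

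Set against each other per length, in FPKM (fragments scaled to gene length and library total), the cyclases stood in different proportions in the states. Over the 10 adenylyl cyclase genes in the table, the summed level was 30.7 to 41.5 FPKM in resting and 36.5 to 49.5 FPKM in effector libraries. Adcy7 made up 67.1 to 79.2% of that sum in resting libraries and 75.1 to 89.7% in effector libraries. The share of Adcy6 was 10.6 to 15.8% in all 9 resting libraries, 0.217 to 2.56% in +/+ effector, 1.87 to 3.0% in fl/+ effector and 4.87 to 9.50% in fl/fl effector libraries. Adcy7 thus stood 4.25 to 7.43 times above Adcy6 in resting libraries, 27.7 to 414 times in +/+ and fl/+ effector libraries, and 7.90 to 17.7 times in fl/fl effector libraries. Adcy3, the only other cyclase with enough counts to test, was at group means of 3.22 to 4.96 FPKM and was called in no comparison.

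**Figure D2:**
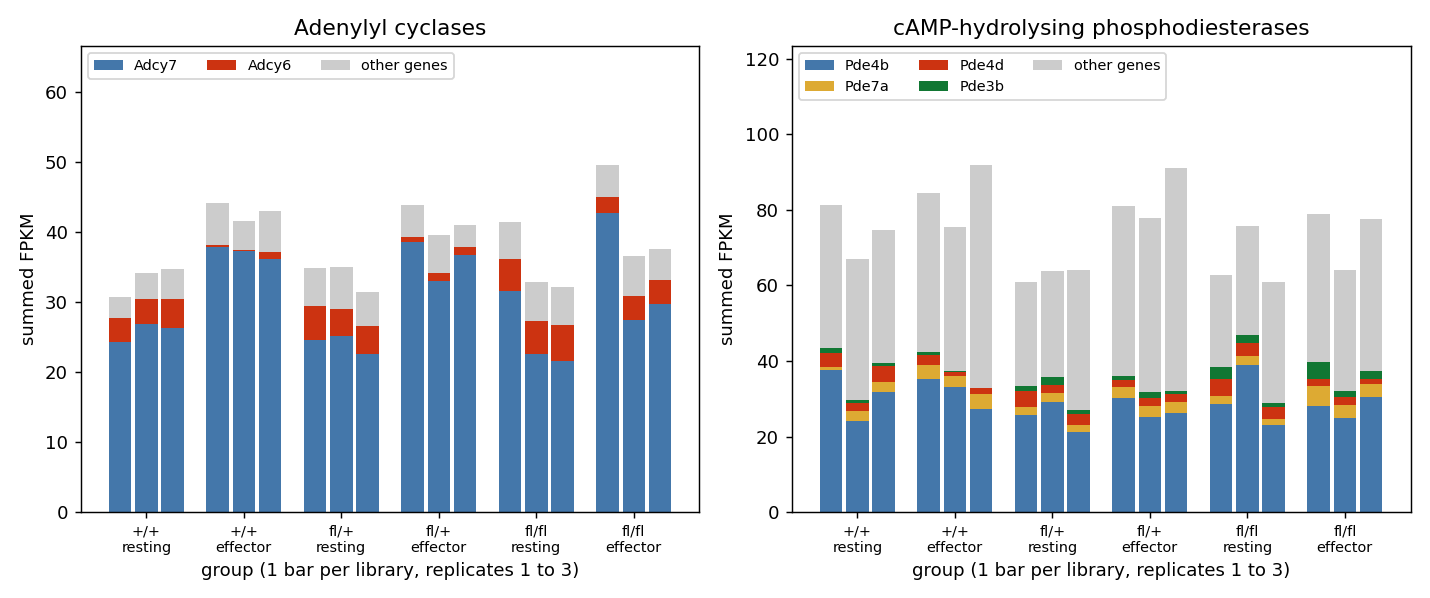
Summed FPKM per library (1 bar each, replicates 1 to 3 from left to right in each group) of the adenylyl cyclases (left) and the cAMP-hydrolysing phosphodiesterases (right), divided by gene. The Adcy6 segment is 10.6 to 15.8% of the cyclase sum in resting bars, at most 3.0% in +/+ and fl/+ effector bars and 4.87 to 9.50% in fl/fl effector bars.

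Vipr1 encodes VPAC1, a Gs-coupled receptor for vasoactive intestinal peptide that activates adenylyl cyclase. It read 20.8, 14.6 and 30 CPM in +/+ resting libraries and 4.65, 4.23 and 14.4 CPM in +/+ effector libraries. The groups lay next to each other without overlap, because +/+ effector replicate 3 nearly reached resting replicate 2 (log2 fold change -1.50, SE 0.40). This call was lost without +/+ effector replicate 1 or 2 or +/+ resting replicate 3. In fl/+ it read 17.2, 28.3 and 16.0 CPM resting and 4.63, 9.06 and 4.35 CPM effector (-1.79, SE 0.39). In fl/fl it read 38.8, 32.5 and 25.1 CPM resting and 17.7, 19.5 and 25.4 CPM effector, which overlapped (-0.66, SE 0.34). Pair by pair, 3 of 3 effector libraries were below their resting partner in +/+ and in fl/+, and 2 of 3 in fl/fl.

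Vipr1 was higher in fl/fl than in fl/+ effector cells by 1.78 on the log2 scale (SE 0.39, 20.9 ± 4.02 against 6.02 ± 2.64 CPM, edgeR adjusted p = 0.0375). That call was lost in the same edgeR test without fl/+ effector replicate 1 (adjusted p = 0.198) or 3 (0.26) or fl/fl effector replicate 2 (0.159) or 3 (0.124). Against +/+ effector cells Vipr1 differed by 1.41 (SE 0.40), with no overlap between the libraries, and missed the threshold (edgeR adjusted p = 0.0607). It passed without +/+ effector replicate 3, the high library of its group (2.168, edgeR adjusted p = 0.00379), and without fl/fl effector replicate 1 (1.53, edgeR adjusted p = 0.0487). With all libraries, Vipr1 passed in 4 of 9 other fits: without the filter on low counts (edgeR adjusted p = 2.41e-05), with the block by number (edgeR adjusted p = 0.0434), in DESeq2 (adjusted p = 0.0148) and in limma on log2(FPKM + 1) (adjusted p = 0.0476). The change between states did not differ between fl/fl and +/+ past the threshold (0.85, SE 0.53, edgeR adjusted p = 0.673).

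The other Gs-coupled receptors formed a list of 13 genes, 7 of them tested, which was drawn up for this purpose and holds prostaglandin and adenosine receptors among others. In +/+ cells 3 of the 7 rose and 1 fell from resting to effector, where 9.49% of all genes rose and 6.50% fell. The median log2 fold change was 0.04 for the list and -0.01 over all genes tested. Ptger2, the prostaglandin E receptor EP2, rose by 1.47 (SE 0.20, edgeR adjusted p = 6.39e-05), from 40.7 to 65.2 CPM in resting libraries to 121 to 151 CPM in effector libraries. Ptger4 (0.87, SE 0.19, edgeR adjusted p = 0.00375) and the adenosine receptor Adora2a (0.82, SE 0.20, edgeR adjusted p = 0.0061) rose too. Ptgir, the prostacyclin receptor, fell by 1.12 (SE 0.34, edgeR adjusted p = 0.0265). In fl/+ the same 4 receptors were called in the same directions and Gpr65 fell as well. In fl/fl Ptger2 was the 1 receptor of the 7 that was called, and it rose (0.74, SE 0.21, edgeR adjusted p = 0.0425).

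Between genotypes Ptger2 was the 1 gene of the 52 tested pathway genes outside the 9 that was called in effector cells. That count stands beside 2.81% of all genes for fl/fl against +/+ and 0.677% for fl/fl against fl/+, and nothing is read from it about the pathway. Ptger2 was lower in fl/fl than in +/+ by 1.11 on the log2 scale, at -1.11 (SE 0.20, 63.5 ± 16.7 against 139 ± 15.9 CPM, edgeR adjusted p = 0.00613), and lower than in fl/+, at -1.07 (SE 0.20, edgeR adjusted p = 0.0257). The part of the state-marker differences given above in the Ptger2 values was not tested.

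Pde3b, a cAMP phosphodiesterase that cGMP inhibits, rested on few counts. Its level was 7.61, 4.46 and 5.13 CPM in +/+ resting libraries and 4.01, 1.59 and 0.370 CPM in +/+ effector libraries. The effector values rest on 19, 3 and 1 expected counts. The log2 fold change between states was -1.34 (SE 0.59) in +/+ without passing the threshold, and -2.69 without effector replicate 1, where it passed. In fl/+ the libraries read 6.89, 11.02 and 6.10 CPM resting and 4.97, 8.80 and 4.11 CPM effector (-0.43, SE 0.49). In fl/fl they read 17, 11.2 and 5.61 CPM resting and 21.4, 9.06 and 11.5 CPM effector (0.36, SE 0.45), and the states overlapped in both genotypes.

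In effector cells Pde3b was higher in fl/fl than in +/+ by 2.63 on the log2 scale (SE 0.55, 13.98 ± 6.53 against 1.99 ± 1.86 CPM, edgeR adjusted p = 0.0137), with no overlap between the libraries. Without +/+ effector replicate 2 it missed the threshold (2.50, edgeR adjusted p = 0.0756), and it passed without each of the other 17 libraries in turn. The fl/fl replicate 1 libraries were the highest of their state both for Pde3b and for the CD8 and NK cell sum (35.2 CPM resting, 41.8 CPM effector). Of the genes in that sum, Klrb1c reached 21.8 CPM in fl/fl effector libraries, and Cd8b1 was at 15.7 to 17.8 CPM. Replicate 1 also had the highest effector-state sum of fl/fl in each state (165 CPM resting, 654 CPM effector). The part of any of these in the Pde3b values was not tested. Without fl/fl effector replicate 1 the Pde3b difference was 2.12 (edgeR adjusted p = 0.0412). Against fl/+ effector cells the difference was 1.29 (SE 0.46, edgeR adjusted p = 0.22). In resting cells fl/fl was above +/+ by 0.93 (SE 0.49, edgeR adjusted p = 0.696), and the libraries overlapped. The difference between the state changes of fl/fl and +/+ was 1.698 (SE 0.74, edgeR adjusted p = 0.513).

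**Figure D3:**
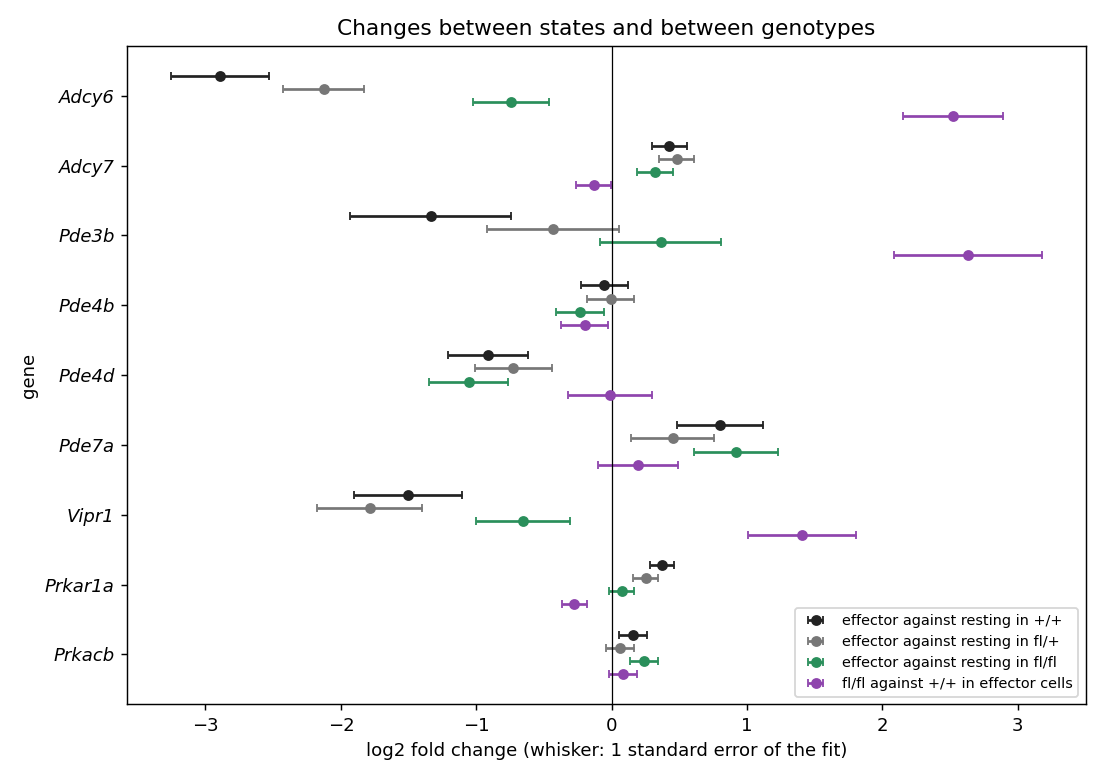
Log2 fold change (horizontal axis) with 1 standard error of the edgeR fit for each of the 9 genes, in the 3 comparisons of effector with resting cells and in fl/fl against +/+ effector cells. Adcy6, Pde3b and Vipr1 lie at 1.41 or more in the genotype comparison, and the other 6 genes lie between -0.27 and 0.19.

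Pde4d, a cAMP-specific phosphodiesterase, was lower in effector than in resting cells to a similar degree in each genotype. It read 26.1, 14.6 and 30 CPM resting and 17.5, 6.87 and 11.1 CPM effector in +/+, where resting replicate 2 lay inside the effector range (log2 fold change -0.91, SE 0.30). In fl/+ it read 29.7, 16.9 and 19.3 CPM resting and 11.8, 14.5 and 14.8 CPM effector (-0.73, SE 0.28). In fl/fl it read 29.8, 24.9 and 23.3 CPM resting and 13.7, 13.1 and 9.67 CPM effector (-1.06, SE 0.29), without overlap. Each of the 9 effector libraries was below the resting library of its own genotype and number. No genotype comparison called Pde4d, and in effector cells fl/fl against +/+ was -0.01 (SE 0.31, edgeR adjusted p = 0.994).

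The Pde4d calls between states, which describe a gene named with such a contrast in view, depended on single libraries and on the fit. The +/+ call was lost when any of +/+ resting replicates 1 and 3, +/+ effector replicates 2 and 3, fl/+ effector replicate 2 or fl/fl resting replicate 2 was left out. The fl/fl call was lost when any 1 of the 6 fl/fl libraries was left out. Of 10 other fits, the +/+ call was lost in 3 (only the groups compared, and both FPKM scales) and the fl/fl call in 2 (both FPKM scales), and Pde4d was called in fl/+ in 3 (no filter, the block by genotype and number, only the groups compared). The fold change kept its sign in each case.

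Pde4b, the cAMP-specific phosphodiesterase most tied to immune cells, had the highest level per length of the 4 phosphodiesterases described here. It read 159, 105 and 125 CPM in +/+ resting and 136, 133 and 107 CPM in +/+ effector libraries (log2 fold change -0.05, SE 0.17). In fl/+ it read 110, 125 and 88.8 CPM resting and 117, 101 and 104 CPM effector (-0.01, SE 0.17). In fl/fl it read 117, 168 and 101.5 CPM resting and 105, 102 and 123 CPM effector (-0.23, SE 0.17). States and genotypes overlapped throughout, and no comparison called it.

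Pde7a, a cAMP-specific phosphodiesterase that many inhibitors of the PDE4 family do not block, read higher in effector than in resting libraries without passing the threshold. It read 3.04, 8.92 and 7.50 CPM resting and 10.98, 10.0 and 11.5 CPM effector in +/+ (log2 fold change 0.80, SE 0.32). In fl/+ it read 6.68, 7.08 and 6.10 CPM resting and 9.43, 9.06 and 8.71 CPM effector (0.45, SE 0.31), and in fl/fl 6.86, 7.94 and 5.02 CPM resting and 15.4, 10.7 and 10.3 CPM effector (0.92, SE 0.31). The states did not overlap in any of the 3 genotypes, yet no comparison called Pde7a. The counts were low, and why Pde7a missed the threshold was not tested. It was called in +/+ without +/+ resting replicate 2 (1.13) and in fl/fl without +/+ resting replicate 1.

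Per length, Pde4b held 28.8 to 51.4% of the summed FPKM of the 16 cAMP-hydrolysing phosphodiesterases in the table, Pde4d 1.32 to 6.83%, Pde3b 0.0763 to 5.53% and Pde7a 1.08 to 6.65%. Much of the rest was Pde2a, which cGMP stimulates and which also hydrolyses cGMP, at group means of 21.4 to 43.3 FPKM. In effector cells its mean was above that of Pde4b: 38.5 against 31.9 FPKM in +/+, 43.3 against 27.2 in fl/+ and 29.8 against 27.9 in fl/fl. In resting cells its mean was below that of Pde4b in each genotype. The phosphodiesterases outside the 9 numbered 12 that hydrolyse cAMP, 5 of them tested. In +/+ cells Pde4a was the 1 gene of the 5 called between states, at 2.51 (SE 0.66, edgeR adjusted p = 0.0113) and low levels of 0.395 to 1.02 CPM resting and 2.22 to 6.13 CPM effector. In fl/+ Pde2a was the 1 called, at 0.83 (SE 0.20, edgeR adjusted p = 0.00761), and in fl/fl none passed. The share over all genes was 16.0% for +/+, 16.3% for fl/+ and 6.34% for fl/fl, so counts of 1, 1 and 0 among 5 genes are near the background. None of the 5 was called between genotypes.

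Prkar1a, the type I alpha regulatory subunit that holds the PKA catalytic subunits inactive until cAMP binds, had the highest level per length of the 9. It read 519, 499 and 481 CPM in +/+ resting and 677, 708 and 555.5 CPM in +/+ effector libraries (log2 fold change 0.37, SE 0.09), a call lost without +/+ effector replicate 2. In fl/+ it read 498, 519 and 493 CPM resting and 603, 599 and 593 CPM effector (0.25, SE 0.09), called only without +/+ effector replicate 3 or with the blocks, DESeq2, FPKM or the 2 groups alone. In fl/fl, 488, 562 and 475 CPM resting and 572, 527 and 503 CPM effector overlapped (0.07, SE 0.09). The effector mean was 647 ± 80.7 CPM (SD, n = 3) in +/+, 598 ± 5.24 CPM in fl/+ and 534 ± 35.3 CPM in fl/fl, and fl/fl against +/+ did not pass (-0.27, SE 0.09, edgeR adjusted p = 0.11). It passed without +/+ effector replicate 3 (-0.37, edgeR adjusted p = 0.022).

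Prkacb, a catalytic subunit of PKA, kept similar levels. It read 184, 171 and 182 CPM resting and 205.5, 203 and 191 CPM effector in +/+, 188, 177 and 205 CPM resting and 224, 175 and 195 CPM effector in fl/+, and 202.5, 176 and 159 CPM resting and 219, 195 and 222 CPM effector in fl/fl. The log2 fold changes between states were 0.16, 0.06 and 0.24 (SE 0.11, 0.10 and 0.11), and no comparison called it. Per length Prkacb stood 5.03 to 8.11 times above the other main catalytic subunit, Prkaca, across the 6 group means, and Prkar1a stood 3.29 to 4.21 times above Prkacb. Of the other PKA subunits and inhibitors, 7 genes with 3 tested (Prkaca, Prkar1b and Prkar2a), none was called in any comparison.

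Across the genotype comparisons in resting cells no member was called: 0 of 9 for fl/fl against +/+ (0.696% of all genes), for fl/+ against +/+ (0.0847%) and for fl/fl against fl/+ (0.0282%). At an unadjusted p under 0.05 the count was also 0 of 9 in each, and DESeq2 called none. For fl/+ against +/+ in effector cells the count was 0 of 9 (0.00941% of all genes), with Adcy6 and Pde3b at an unadjusted edgeR p under 0.05 and none called by DESeq2. Median log2 fold changes of the 9 lay between -0.05 and 0.18 over the 12 contrasts, and those of all genes tested between -0.01 and 0.01.

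Other genes around cAMP and PKA, not all of them downstream of PKA, were followed in lists that do not overlap the 9. Their counts between states stand beside shares over all genes of 16.0% (+/+), 16.3% (fl/+) and 6.34% (fl/fl). Of 10 CREB factors and coactivators, all tested, 0 were called in +/+ and in fl/fl between states and 1 in fl/+, the salt-inducible kinase Sik2, which keeps CREB coactivators out of the nucleus (0.66, SE 0.19, edgeR adjusted p = 0.0195). Of 10 genes known to respond to cAMP, 8 were tested, and Areg, a growth factor, was the 1 called in +/+ (3.12, SE 0.93, edgeR adjusted p = 0.0258). Areg was at 0.507 to 0.811 CPM in resting and 1.85 to 12.7 CPM in effector libraries. Nr4a1, another of these, kept group means of 129 to 172 CPM. Among 8 tested PKA anchoring proteins, Akap13 fell in +/+ (-0.43, SE 0.09, edgeR adjusted p = 0.00136) and Akap12 rose (0.90, SE 0.21, edgeR adjusted p = 0.00614). In fl/+ 3 of the 8 fell and 0 rose, and in fl/fl 0 were called. Of 4 tested genes for EPAC and cAMP export, 0 were called in +/+, 2 fell in fl/+ and 1 rose in fl/fl. Of the 4 tested G protein alpha subunits, Gnas, which couples receptors to the cyclases, was at group means of 36.4 to 46.2 FPKM and, like the other 3, was not called. Over all 10 lists, 52 of 89 genes were tested, and 7 rose and 2 fell in +/+, where 9.49% and 6.50% of all genes did. In fl/+ 5 rose and 7 fell, where 9.72% and 6.58% of all genes did, and in fl/fl 2 rose and 0 fell, where 5.01% and 1.33% of all genes did.

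**Figure D4:**
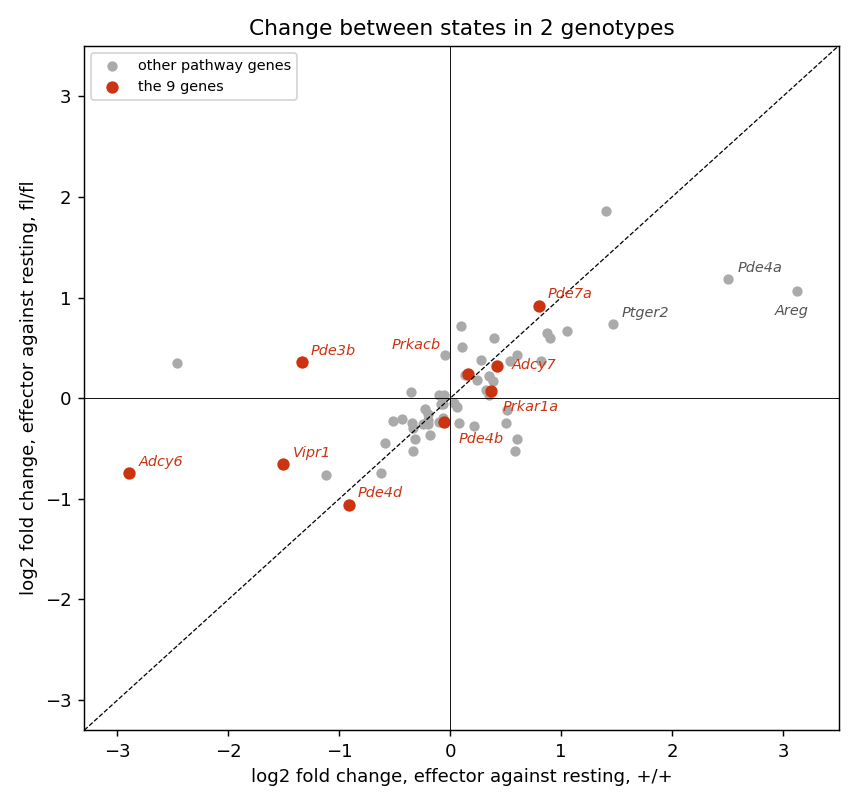
Log2 fold change from resting to effector cells in +/+ (horizontal axis) and in fl/fl (vertical axis), which share no library, for the 9 genes (red) and the 52 other tested pathway genes (grey), with a dashed line where both are equal. Adcy6 lies at -2.89 in +/+ and -0.74 in fl/fl, and Pde4d at -0.91 and -1.06 lies near the line.

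Over the 18 libraries, the log2 CPM of some members ran together, and these correlations describe libraries that share the split into states. Pearson's r was 0.87 for Adcy6 with Vipr1 and -0.93 for Adcy6 with Prkar1a, while Pde4b had values between -0.24 and 0.26 with the other 8. Among 8773 genes whose mean reached 5 CPM, the 3 with the highest r to Adcy6 were Sgk3 (0.957), Lef1 (0.951) and Cnn3 (0.943). For Vipr1 they were Itgb3 (0.946), Ly6c1 (0.937) and Pecam1 (0.935), for Adcy7 Unc119b (0.956), Itgal (0.951) and Ccdc50 (0.942), and for Prkar1a Rtfdc1 (0.933), Zap70 (0.927) and Mmd (0.926). The closest gene to Pde4b, Mynn, reached 0.791.

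The 9 genes lie on 8 chromosomes of GRCm38: Adcy6 at chr15:98589973-98610076 (minus strand), Adcy7 at chr8:88272403-88329962 (plus), Vipr1 at chr9:121642716-121672954 (plus), Pde3b at chr7:114415281-114539251 (plus), Pde4b at chr4:102087543-102607259 (plus), Pde4d at chr13:108449948-109953461 (plus), Pde7a at chr3:19223108-19311322 (minus), Prkar1a at chr11:109649405-109669656 (plus) and Prkacb at chr3:146729574-146812990 (minus). All are protein coding in the GENCODE annotation. Adcy6 is overlapped by the antisense gene Gm29331, Pde7a by the antisense gene Gm16093, Prkacb by the pseudogene Gm19104 on the other strand, and Pde4d by 5 small genes. The sources used here do not say whether the counting used strand, so reads of these pairs cannot be told apart.

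The cAMP response element, the DNA motif bound by CREB, is the palindrome TGACGTCA, and its core TGACG reads CGTCA on the other strand. Promoter windows of 300 bases (250 before to 50 after a start, RefSeq on GRCm38.p6) were matched for 6 of the 9 genes, in 18 windows: Adcy7, Pde4b, Pde4d, Vipr1, Prkar1a and Prkacb. The palindrome was found in 1.79% of 32851 windows of all genes, and the core on either strand, palindromes included, in 20.8%. Among the 18 windows of the members, 2 held the palindrome and 7 the core. The 2 windows with the palindrome are overlapping Prkar1a windows that share 1 site, so they are not separate matches. Counted per gene, Prkar1a held the palindrome and 5 of the 6, all but Pde4d, held the core in at least 1 window, beside 2.03% and 23.0% of 27025 genes with a window, though the members have more windows per gene. Each stretch of 30 bases is shown as the place where a member's promoter has those letters, 5′ to 3′ on the strand of the gene, with the match in capitals.
Prkar1a (chr11:109650888-109650917, plus strand): agcgaggcgcatTGACGTCAgcagccgaac
Adcy7 (chr8:88282952-88282981, plus strand): tgatcatagagcCGTCAggggggtggggct
Vipr1 (chr9:121642691-121642720, plus strand): aaccccgccgccCGTCAgacgagcccccgc
Pde4b (chr4:102421509-102421538, plus strand): gatttggctgcaCGTCAattttctcatctg
Prkacb (chr3:146813031-146813060, minus strand): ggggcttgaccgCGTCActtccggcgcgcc
A match describes these letters only and is neither a bound site nor a cause of any value above. Adcy6, Pde3b and Pde7a had no window, and whether a match goes with any direction of change was not tested.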

How the data were processed

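RNA-seq of 18 sorted mouse Treg libraries was deposited as 2 tables. The submitters' processing notes list genome build mm10 and the tools RSEM 1.2.8, STAR 2.6.0 and bcl2fastq 2.17.1.14. No source used here gives the annotation, strand setting or filters. The authors deposited RSEM expected counts per gene, of which 29.4% of nonzero values were not whole (tolerance 0.001), and all were rounded. The authors also deposited FPKM per gene, used here for comparisons between genes, and in alternatives.

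Counts were fitted in R 4.3.3 with edgeR 4.0.16: TMM scaling (factors 0.939 to 1.06), filterByExpr by group (10630 of 23420 genes kept), 6 group means over 18 libraries and the quasi-likelihood F test. Calls needed an adjusted p under 0.05 (Benjamini-Hochberg over all genes tested). The common dispersion was 0.0215, and replicates differed by more than counting error (chi-square per gene 3.51 to 7.02). Rn45s, ribosomal RNA, made up 10.9 to 16.4% of the counts. CPM were computed on TMM-scaled totals. In simulated counts, 68.7% of 2-fold and 90.0% of 4-fold changes were recovered for effector against resting in +/+ (10459 genes). For fl/fl against +/+ in effector cells (10458 genes) the rates were 74.0% and 86.9%. Each gene was drawn around its mean over the 18 libraries, and 100 genes per fold were changed, in 1 group only. Changed genes lost to the filter were left out of the rates. Unchanged genes called numbered 7 and 12 in the same order. The rates were not split by level, so they do not give the rate for genes with few counts.

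The members and lists were chosen with earlier results of these data known. The targeted gene and some genes of the lists are not reported here and are left out of the list counts and sums. All members were named, with called list genes of the largest fold change (up to 3 per direction), the most abundant uncalled ones (up to 2 per list), and the 3 genes of highest correlation with each member. Replicate numbers pair the resting and effector library of a genotype: residuals of all 9 such pairs correlated above 0.1 (mean 0.25, 0.16 to 0.41). Same numbers across genotypes did not all do so (mean 0.077, 15 of 36 pairs above 0.1). Different numbers across genotypes did so in 2 of 72 pairs (mean -0.038). Residuals were taken from the mean of each group, which ties this value to the same-number value, so it is no separate baseline. Libraries of 1 batch number may share some variation, which was not tested. The main fit does not model this, and the block by number is given as an alternative. Alternatives were DESeq2 1.42.0, limma 3.58.1 on log2(FPKM + 1) and log2(FPKM + 0.1), other filters and scaling, blocks by number, and leaving out each library. Positions came from GENCODE on GRCm38 and promoters from RefSeq.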

Additional observations from a re-analysis of the deposited data

How the results depend on the processing

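Of 2970 alternative values of the 108 member fold changes (9 genes in 12 contrasts), 2896 kept their side of the threshold, 41 lost it, 33 gained it, and 0 called values reversed, while 106 uncalled values changed sign. The count of members called was 5 for effector against resting in fl/+ both with the replicate block by genotype and number and with only the groups compared, against 3. For effector against resting in fl/fl it was 2 without a filter on low counts, 2 with that block and 0 on both FPKM scales, against 1. For fl/fl against fl/+ in effector cells it was 0 with only the groups compared, 1 on log2(FPKM + 1) and 0 on log2(FPKM + 0.1), against 2. For the change between states in fl/fl less +/+ it was 1 (Adcy6) without the filter, with the replicate block by genotype and number, and in DESeq2 (adjusted p = 0.0042), against 0. In fl/fl less fl/+ it was 1 (Adcy6) without the filter. The replicate block by number alone added Vipr1 (edgeR adjusted p = 0.0434) for fl/fl against +/+ in effector cells and Prkar1a for effector against resting in fl/+, and changed no other member's call. Leaving out 1 library gave 1 to 6 members for +/+ between states, 2 to 4 for fl/+, 0 to 2 for fl/fl, 1 to 4 for fl/fl against +/+ in effector cells, 0 to 2 for fl/fl against fl/+ in effector cells and 0 to 1 for the change in fl/fl less +/+. With 2 libraries left in an arm, the spread is pooled over all groups. The cause of these changes was not tested.

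Over all genes, the count called for fl/fl against +/+ in effector cells was 299, and 830 without the filter, 552 with the block by number, 154 with only the groups compared, 455 in DESeq2 and 183 on log2(FPKM + 0.1). It ran from 31 (without +/+ effector replicate 1) to 648 (without fl/fl effector replicate 1). For fl/fl against fl/+ in effector cells the count of 72 became 488, 181, 4, 181 and 14 in the same order, 33 on log2(FPKM + 1), and 3 to 310 with a library left out. For effector against resting in fl/fl, 674 became 1012 without the filter, 1071 with the block by genotype and number and 349 with only the groups compared, and 266 to 791 with a library left out. For the change between states, fl/fl less +/+, 0 became 246 without the filter, 120 with the block by genotype and number, 15 in DESeq2 and 5 on log2(FPKM + 1). For fl/fl against +/+ in resting cells, 74 became 315, 179, 35 and 130 (no filter, block by number, only the groups compared, DESeq2), and for fl/+ against +/+ in resting cells 9 became 219, 90, 5 and 40. For fl/+ against +/+ in effector cells, 1 became 176, 34, 0 and 19. For fl/fl against fl/+ in resting cells, 3 became 94, 6 and 6 (no filter, only the groups compared, DESeq2). Depth limits the precision of low values: in +/+ effector cells 1 library of Adcy6 and 1 of Pde3b rest on 1 count each.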
